A study of Mus musculus with 2 samples.

Results

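The granule neurons of the dentate gyrus were described here in single cells of the ventral hippocampus (vHPC) of adult mice, through the depth and quality values that accompany each cell. The authors split these neurons into 2 clusters, Neu_DG_1 and Neu_DG_2, and all cells carrying either name were taken as members, 1109 of the 8477 cells in the table. Neu_DG_1 held 890 cells (486 WT and 404 L151) and Neu_DG_2 held 219 cells (104 WT and 115 L151). WT is the male wild-type ADCY2-V151 library, and L151 the male library homozygous for ADCY2-L151, in which a leucine replaces a valine in a transmembrane domain of adenylyl cyclase 2. Both genotypes were on a mixed C57BL/6J x C57BL/6N background and aged 11 to 12 weeks, and the substitution was made by CRISPR/Cas9 in the germline, so it is present in every cell type. The tissue was digested with papain and captured in 10x Genomics droplets, where a molecular barcode (UMI) lets every RNA molecule caught from a cell be counted a single time.

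Granule cells are the principal excitatory neurons of the dentate gyrus. They receive the main cortical input to the hippocampus and send mossy fibres to CA3 pyramidal neurons, and they are added throughout life from progenitors that pass through a neuroblast stage. They are usually recognised by the transcription factor Prox1, the synaptic protein C1ql2 and the desmosomal protein Dsp. Counts per gene were not analysed here, so these markers were not checked and the names of the clusters are those of the authors. The values of a cell used here are its UMIs, its genes with at least 1 UMI, the percent of its UMIs from mitochondrial genes, and a deposited doublet score, which rates how likely a droplet is to hold more than 1 cell. A high mitochondrial percent in dissociated tissue is commonly read as a sign of damage or of high metabolic activity.

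Each genotype has 1 library, so the spread between mice is unknown, and cells are not replicates. The authors excluded a sample of each genotype, and the number of mice behind each library is not stated. Each library may therefore stand for 1 mouse. The clusters were made from the expression of these same cells, so a difference between the clusters is given as a description. No test was made between clusters or between libraries, and a genotype difference cannot be told apart from a difference between the libraries. Shares are given with the exact Clopper-Pearson 95% interval, which covers counting error only. The WT library held 22049587 UMIs over 4055 cells and the L151 library 22276085 UMIs over 4422 cells. The libraries had 3 cell barcodes in common, and 1 granule cell carried one of these.

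Neu_DG_2 was the deeper cluster in both libraries. In the WT library, UMIs per cell ran from 523 to 6206 in Neu_DG_1 with a median of 3363, and from 3391 to 14814 in Neu_DG_2 with a median of 10573.5. In the L151 library they ran from 702 to 7082 in Neu_DG_1 with a median of 3594.5, and from 3560 to 14945 in Neu_DG_2 with a median of 11239. The medians therefore differed 3.14-fold in WT and 3.13-fold in L151, although the ranges overlapped. In WT 241 of 486 Neu_DG_1 cells and 12 of 104 Neu_DG_2 cells fell in the range of UMIs that both clusters covered, and in L151 204 of 404 and 34 of 115 cells did.

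**Figure D1:**
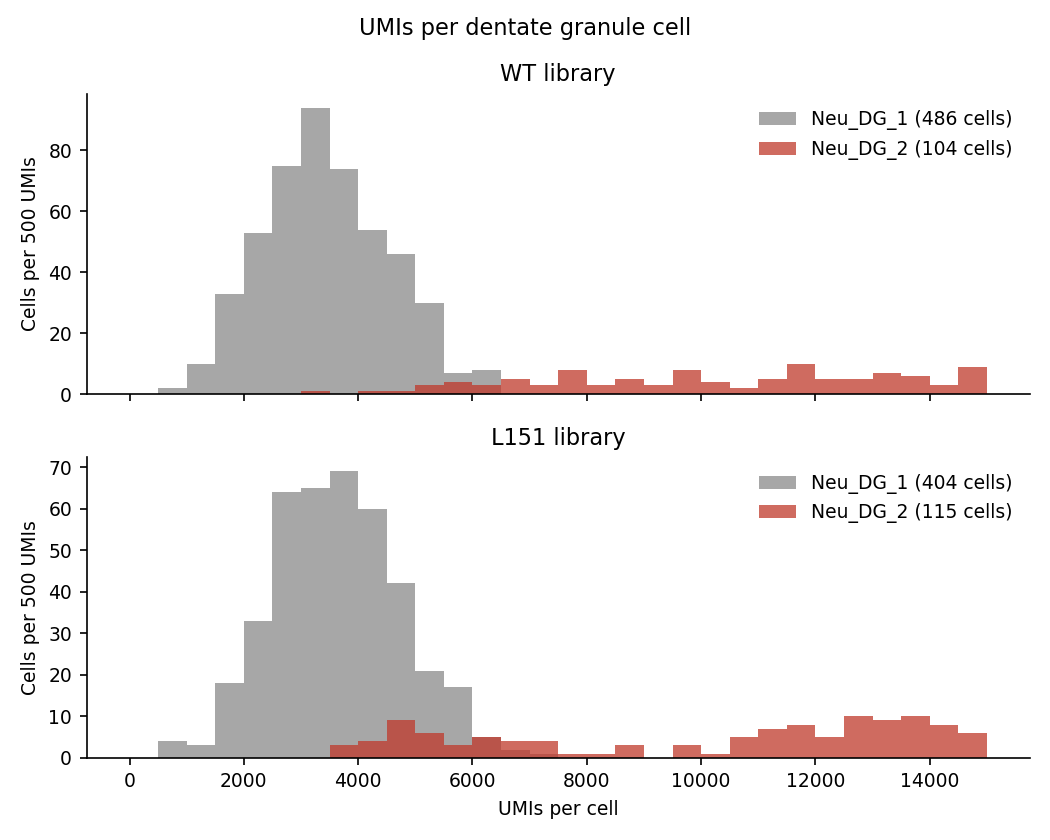
Histogram of UMIs per cell (x axis, in steps of 500) against the number of cells (y axis) for Neu_DG_1 (grey) and Neu_DG_2 (red) in the WT (top) and L151 (bottom) libraries. Neu_DG_1 forms 1 peak around medians of 3363 and 3594.5 UMIs, whereas Neu_DG_2 is spread from about its lowest values of 3391 and 3560 UMIs up to the right edge, where the table ends below 15000 UMIs.

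Neu_DG_2 cells were few but carried a large part of the UMIs of the granule cells. They made up 17.6% of WT granule cells (95% interval 14.6 to 20.9%) and 22.2% of L151 granule cells (18.7 to 26.0%). Of all UMIs of granule cells, 39.1% in WT (1073530 UMIs) and 44.1% in L151 (1161977 UMIs) came from Neu_DG_2. Of the mitochondrial UMIs of granule cells, 17.5% in WT and 20.6% in L151 came from this cluster, which is close to its share of the cells. The intervals for the share of cells overlap between the libraries. In counts of whole libraries, Neu_DG_2 took 2.56% of WT cells (2.10 to 3.099%) and 2.60% of L151 cells (2.15 to 3.11%), whereas Neu_DG_1 took 12.0% of WT cells (11.0 to 13.0%) and 9.14% of L151 cells (8.30 to 10.0%). Both clusters together were 14.5% of WT cells (13.5 to 15.7%) and 11.7% of L151 cells (10.8 to 12.7%), intervals that do not overlap but cover counting error only.

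The number of genes per cell followed the same order. Neu_DG_1 cells had a median of 1595.5 genes in WT (quartiles 1320.5 and 1879.25) and 1745 in L151 (1453.75 and 1994.5). Neu_DG_2 cells had a median of 4080.5 genes in WT (3244.75 and 4404.25) and 4186 in L151 (2842 and 4525). In both libraries these quartile ranges of the clusters did not overlap. The ratio of the medians was 2.56 in WT and 2.40 in L151, smaller than the ratio for UMIs.

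Among the 33 clusters of the table, Neu_DG_2 ranked the 1st in median UMIs and in median genes in either library. The other 31 clusters, granule clusters left aside, had median genes from 498 to 3677.5 in WT and from 414 to 3563 in L151, with OPC_COP, the committed oligodendrocyte progenitors, at the top in both. Cells with at least 4500 genes, a limit not set in advance, were mostly of this cluster. In WT 24 of 30 such cells (61.4 to 92.3%) and in L151 33 of 38 (71.9 to 95.6%) were Neu_DG_2 cells. With at least 4000 genes its cells were the smaller part, with 56 of 142 in WT (39.4%) and 69 of 145 in L151 (47.6%). The cluster held 26 of the 140 cells of the table with at least 14000 UMIs. None of 890 Neu_DG_1 cells reached 4500 genes, which allows a share of up to 0.337% by a limit of 3 counts and of up to 0.414% by the Clopper-Pearson interval.

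Neu_DG_2 lay close to the upper edge of the deposited values. The authors removed droplets with very many genes, and the highest gene number left was 4927 in WT and 4883 in L151, each reached by a Neu_DG_2 cell. No cell of the table had 15000 UMIs or more, with a highest value of 14989, although the methods name no maximum for UMIs. In Neu_DG_2, 11.5% of WT cells (6.11 to 19.3%) and 12.2% of L151 cells (6.82 to 19.6%) had at least 14000 UMIs. Granule cells above these edges were not analysed here, and the medians of Neu_DG_2 are those of the cells below them.

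Genes per 100 UMIs, a measure of how many different genes a cell's molecules spread over, was lower in Neu_DG_2. The median was 47.3 in Neu_DG_1 and 38.1 in Neu_DG_2 in WT, and 48.3 and 37.2 in L151. This ratio falls as a cell is sampled more deeply, because further molecules come more often from genes already seen, and within Neu_DG_1 alone it went from 57.4 in WT cells under 2000 UMIs to 43.5 in those from 4000 to 6000 UMIs. Within each cluster and library, UMIs and genes ranked the cells almost alike, with Spearman's rho between 0.965 and 0.988 over 104 to 486 cells of 1 library each.

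**Figure D2:**
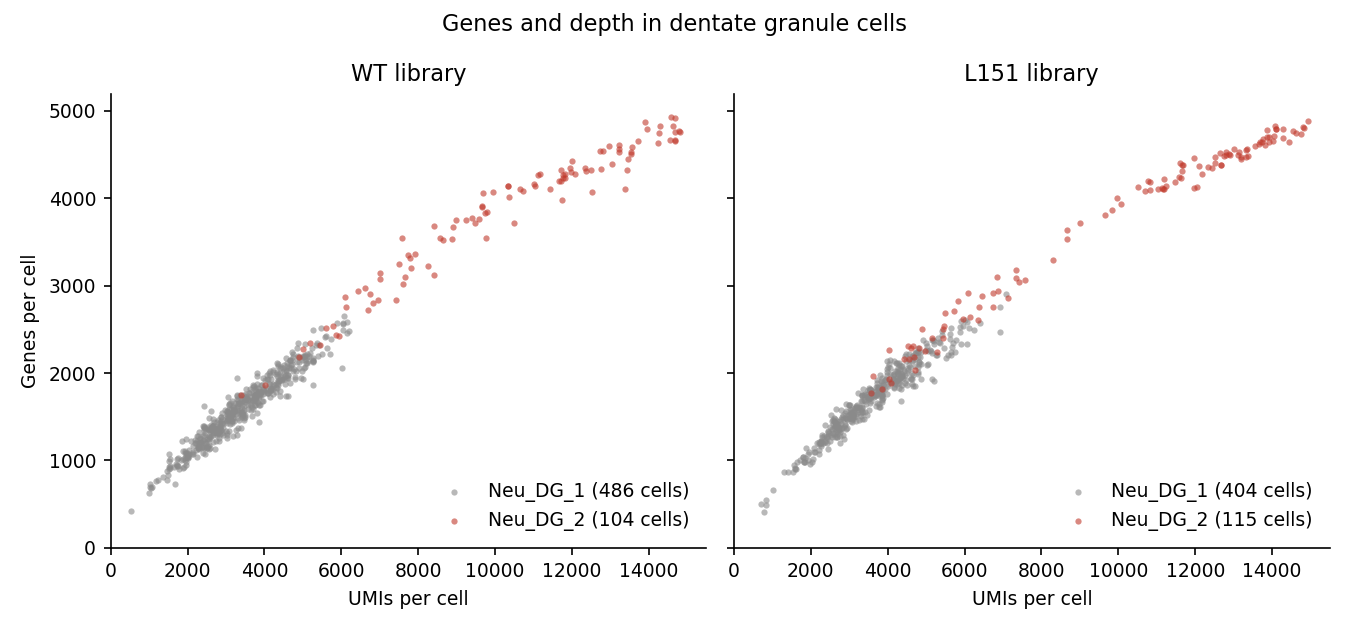
Genes per cell (y axis) against UMIs per cell (x axis) for every cell of Neu_DG_1 (grey) and Neu_DG_2 (red) in the WT (left) and L151 (right) libraries. The clusters follow 1 bending curve, on which Neu_DG_2 takes the upper stretch with medians of 4080.5 and 4186 genes and lies at or slightly above Neu_DG_1 where they meet.

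At like depth Neu_DG_2 cells held somewhat more genes than Neu_DG_1 cells. In the WT bin from 5000 to 6000 UMIs the median was 2200 genes in 37 Neu_DG_1 cells and 2425 genes in 7 Neu_DG_2 cells. In the L151 bin from 4000 to 5000 UMIs it was 2006 genes in 102 Neu_DG_1 cells and 2249 genes in 13 Neu_DG_2 cells. Averaged over the bins of 1000 UMIs with at least 5 cells of each cluster, Neu_DG_2 was higher by 279 genes in WT (2 bins) and 264 genes in L151 (3 bins). Part of this gap was built in, since Neu_DG_2 cells were deeper within a bin, with medians of 5611 against 5252 UMIs in that WT bin. At like depth they also held fewer mitochondrial UMIs, and so more UMIs of other genes. In bins of UMIs without the mitochondrial ones, the gap was 218 genes in WT and 186 in L151. Set against the 5 Neu_DG_1 cells nearest in UMIs, all within 200 UMIs, the median Neu_DG_2 cell had 121 genes more in WT (higher in 11 of 12 cells) and 161 more in L151 (higher in 21 of 27 cells), a matching added after the data were seen. This matching was on all UMIs, and the median difference in mitochondrial UMIs was -191.5 in WT and -165 in L151.

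The mitochondrial percent was lower in Neu_DG_2 in both libraries. Neu_DG_1 cells had a median of 17.2% mitochondrial UMIs in WT (quartiles 13.7 and 20.1%) and 16.7% in L151 (14.1 and 19.1%). Neu_DG_2 cells had a median of 4.23% in WT (3.15 and 10.6%) and 4.18% in L151 (3.32 and 11.2%). The quartile ranges of the clusters were apart in both libraries, while single cells overlapped, with Neu_DG_2 reaching 23.1% in WT and 22.8% in L151. Neu_DG_1 ranked the 3rd highest of 33 clusters in WT and the 2nd in L151, with the CA3 cluster Neu_CA3_2 at the top of both libraries with 21.4%. Neu_DG_2 ranked the 21st and the 23rd.

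Counted as molecules, the mitochondrial RNA of the clusters was nearly level. The median was 562.5 mitochondrial UMIs per cell in Neu_DG_1 and 485 in Neu_DG_2 in WT, and 573 and 496 in L151. All other UMIs differed 3.62-fold in WT, with medians of 2780 and 10062, and 3.64-fold in L151, with medians of 2974.5 and 10841. The lower percent of Neu_DG_2 thus went with more molecules of other genes and with 0.862 times the mitochondrial molecules in WT and 0.866 times in L151. Sequencing depth per cell and RNA content per cell cannot be told apart from these totals.

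**Figure D3:**
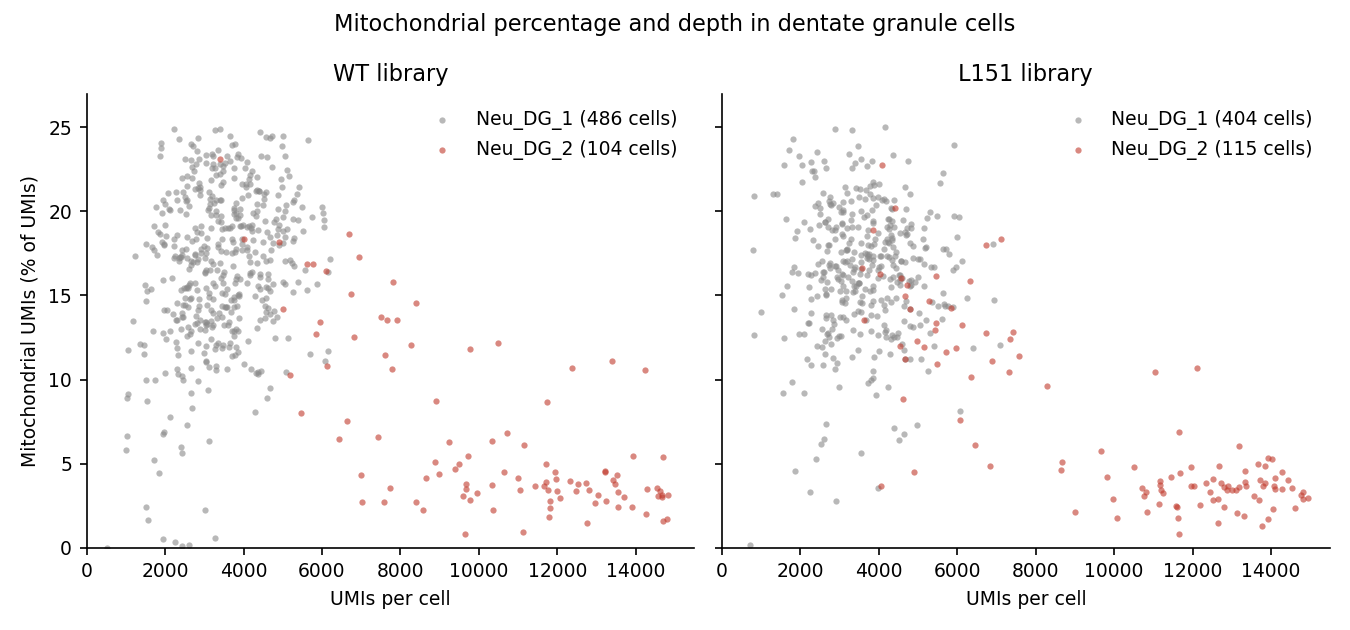
Mitochondrial UMIs in percent of a cell's UMIs (y axis) against UMIs per cell (x axis) for every cell of Neu_DG_1 (grey) and Neu_DG_2 (red) in the WT (left) and L151 (right) libraries. Neu_DG_1 forms a cloud around 17.2% and 16.7%, and Neu_DG_2 runs from the edge of this cloud down to a dense group of deep cells with a median near 4%, namely 3.70% in WT and 3.58% in L151 from 8000 UMIs on.

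Neu_DG_2 was not uniform, and it is described here as a deep part and a shallow part, divided at 8000 UMIs. In WT the depths showed no gap at this limit, with 19 cells from 6000 to 8000 UMIs and 19 from 8000 to 10000. In L151 these ranges held 14 and 7 cells. From 8000 UMIs on there were 75 WT and 76 L151 cells, with medians of 4275 and 4471.5 genes and of 3.70% and 3.58% mitochondrial UMIs. Under 8000 UMIs there were 29 WT and 39 L151 cells, with medians of 2838 and 2507 genes and of 13.4% and 12.8%. The shallow part was 27.9% of the cluster in WT (19.5 to 37.5%) and 33.9% in L151 (25.3 to 43.3%). The limit of 8000 UMIs was chosen after the values were seen and marks a range of depth, not a cell type, with 19 WT and 9 L151 cells between 7000 and 9000 UMIs.

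Neu_DG_2 also showed a step in mitochondrial percent, described here with limits that were not set in advance. Under 8% mitochondrial UMIs there were 71.2% of WT (61.4 to 79.6%) and 67.8% of L151 (58.5 to 76.2%) Neu_DG_2 cells, and only 2 cells of each library lay between 8 and 10%. In Neu_DG_1 these low values were rare, with 20 WT and 14 L151 cells under 8%. The deep part of Neu_DG_2 also held fewer mitochondrial molecules, with medians of 451 UMIs in WT and 446.5 in L151, against 798 and 709 in the shallow part.

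Within the clusters, mitochondrial and other UMIs were related in opposite ways. In Neu_DG_1 cells with more other UMIs also had more mitochondrial UMIs, with Spearman's rho of 0.729 in WT (486 cells) and 0.699 in L151 (404 cells). In Neu_DG_2 the relation was negative, with rho of -0.336 in WT (104 cells) and -0.354 in L151 (115 cells). It was taken over the shallow and the deep part together and was not computed within either part. These values describe cells of 1 library, which share its depth and its filters, and were not tested. By range of depth, Neu_DG_2 cells of 4000 to 6000 UMIs had a median of 14.2% mitochondrial UMIs in WT (9 cells) and 13.2% in L151 (22 cells), and those of 8000 to 10000 UMIs 4.36% (19 cells) and 4.60% (7 cells).

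At like depth, the shallow part of Neu_DG_2 had a lower mitochondrial percent than Neu_DG_1, by an amount that depended on which cells were kept. Over the bins of 1000 UMIs that both clusters filled, the mitochondrial percent of Neu_DG_2 minus that of Neu_DG_1 was -4.83 percentage points in WT (15 Neu_DG_2 cells) and -3.23 points in L151 (31 cells). In the L151 bin from 5000 to 6000 UMIs the medians were 16.7% in 38 Neu_DG_1 cells and 13.0% in 9 Neu_DG_2 cells. The direction was the same in each of the 2 WT and 3 L151 bins. Against the nearest Neu_DG_1 cells the difference was -3.62 points in WT and -3.33 in L151, and it was below 0 in 9 of 12 WT and 22 of 27 L151 cells. With only cells of at most 15% mitochondrial UMIs, a limit below the median of Neu_DG_1, the difference in L151 was -1.23 points, and no bin held enough cells in WT. With cells of a doublet score below 2, it was -2.20 points in L151.

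Neu_DG_1 reached up to the authors' limit on mitochondrial content. The highest values were 24.9% in WT and 24.98% in L151, and 12.1% of WT (9.37 to 15.4%) and 6.44% of L151 Neu_DG_1 cells (4.25 to 9.29%) had at least 22%. Of Neu_DG_2, 1 WT and 1 L151 cell did. Granule cells above the limit were not analysed here, so the number of Neu_DG_1 cells depends on it. At the other end, 9 WT and 1 L151 Neu_DG_1 cells had under 2.5% mitochondrial UMIs. In the 9 WT cells the medians were 2258 UMIs and 0.511% mitochondrial UMIs, which sets them apart in depth from the low-mitochondrial cells of Neu_DG_2.

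The doublet score was higher in Neu_DG_2 and overlapped little with that of Neu_DG_1. No source used here states its scale, and it ran from 0 to 2.98, with many cells at exactly 0. Neu_DG_1 had a median score of 0.673 in WT (quartiles 0.452 and 0.908) and 0.847 in L151 (0.648 and 1.15). Neu_DG_2 had a median score of 1.91 in WT (1.73 and 2.18) and 1.85 in L151 (1.72 and 2.03). A score of at least 1.5, a value chosen after the scores were seen, was found in 102 of 104 WT and 112 of 115 L151 Neu_DG_2 cells and in 32 of 486 WT and 49 of 404 L151 Neu_DG_1 cells.

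**Figure D4:**
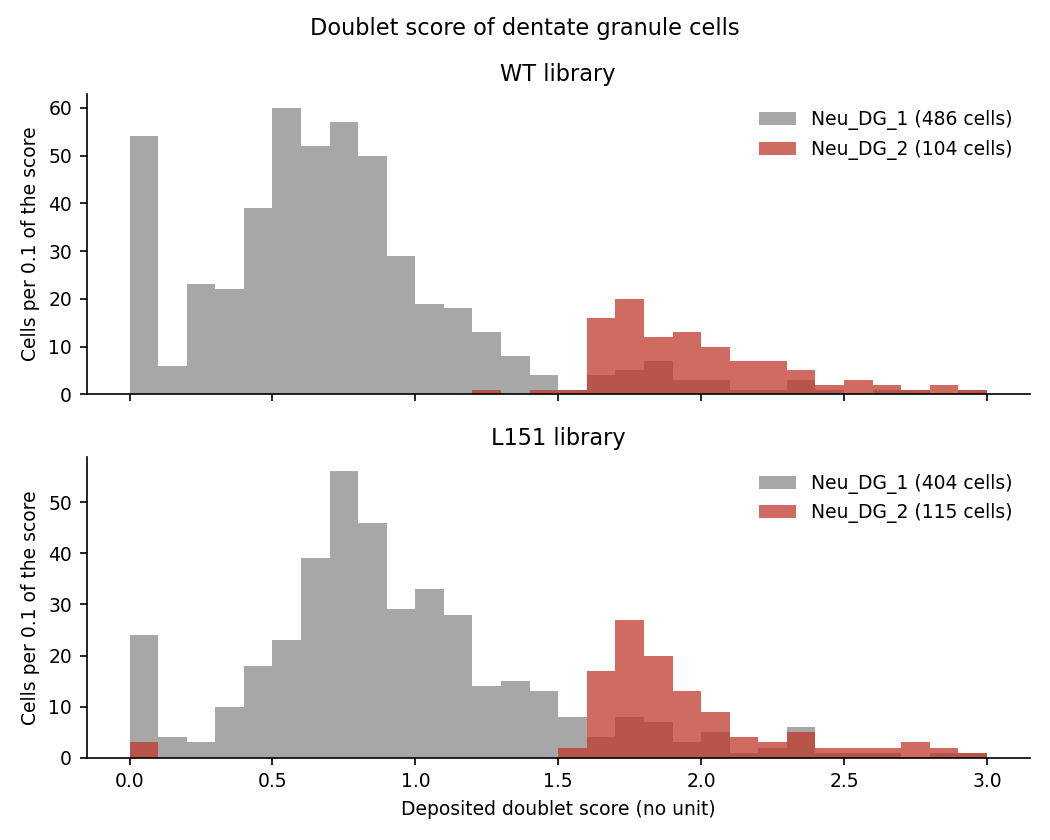
Histogram of the deposited doublet score (x axis, no unit, in steps of 0.1) against the number of cells (y axis) for Neu_DG_1 (grey) and Neu_DG_2 (red) in the WT (top) and L151 (bottom) libraries. Neu_DG_1 peaks around medians of 0.673 and 0.847 with a column of cells at 0, and 102 of 104 and 112 of 115 Neu_DG_2 cells stand at 1.5 or above.

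The gap in doublet score was also present between cells of like depth. In the bins of like depth, Neu_DG_2 scored higher by 1.22 in WT and by 1.002 in L151, about as much as over all cells, where the medians differed by 1.24 and 1.004. Inside Neu_DG_2 the shallow part had the higher scores, with medians of 2.08 and 1.82 in WT and 1.99 and 1.78 in L151. Inside Neu_DG_1 the score rose with depth, with Spearman's rho of 0.544 in WT and 0.466 in L151 over 486 and 404 cells, and 34 of 45 WT and 17 of 25 L151 cells under 2000 UMIs had a score of 0. Neu_DG_1 cells with a score of at least 1.5 were only slightly deeper than those scored between 0 and 1.5, with medians of 3886.5 against 3483 UMIs in WT and 3854 against 3706 in L151, and had similar mitochondrial medians of 18.1 and 17.3% in WT and of 16.7% each in L151.

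Scores as high as those of Neu_DG_2 were found in other clusters that passed the authors' removal of doublets. Neu_DG_2 ranked the 9th of 33 clusters in WT and the 7th in L151 by its median score. The highest medians belonged to Astrocytes_5, with 2.25 in WT and 2.24 in L151, and the deep pyramidal clusters Neu_CA1_5 (2.15 and 2.22) and Neu_CA3_2 (2.05 and 2.06) also stood above Neu_DG_2. Neu_DG_1 ranked the 22nd and the 21st. Whether droplets with 2 cells contribute to Neu_DG_2 was not tested. With cells of a score of 2 or more left out, an alternative added after the scores were seen, Neu_DG_2 made up 11.9% of WT and 17.6% of L151 granule cells, and its median UMIs and genes kept their order against Neu_DG_1.

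The pyramidal neurons of CA1 and CA3, the other principal excitatory cells of the hippocampus, are split into clusters of different depth as well, CA3 into 2 and CA1 into 5. Neu_CA3_2 was deeper than Neu_CA3_1, with medians of 9547.5 and 4183 UMIs in WT and 10616 and 3197 in L151, ratios of 2.28 and 3.32. Its mitochondrial percent was higher than that of Neu_CA3_1 by 13.6 points in WT and 13.4 in L151, whereas the difference of Neu_DG_2 from Neu_DG_1 was -13.0 and -12.5 points. Neu_CA3_2 held medians of 2153.5 and 2155 mitochondrial UMIs, against 485 and 496 in Neu_DG_2. Neu_CA1_5 was deeper than Neu_CA1_1, 1.80-fold in WT and 1.69-fold in L151, and its mitochondrial percent differed from that of Neu_CA1_1 by -3.77 and -5.94 points. Against the other shallower CA1 clusters the sign turned. Neu_CA1_5 had a median of 12.0% in WT and 10.3% in L151, above Neu_CA1_4 (8.28 and 7.99%), Neu_CA1_3 (6.82 and 6.66%) and Neu_CA1_2 (1.13 and 0.47%).

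**Figure D5:**
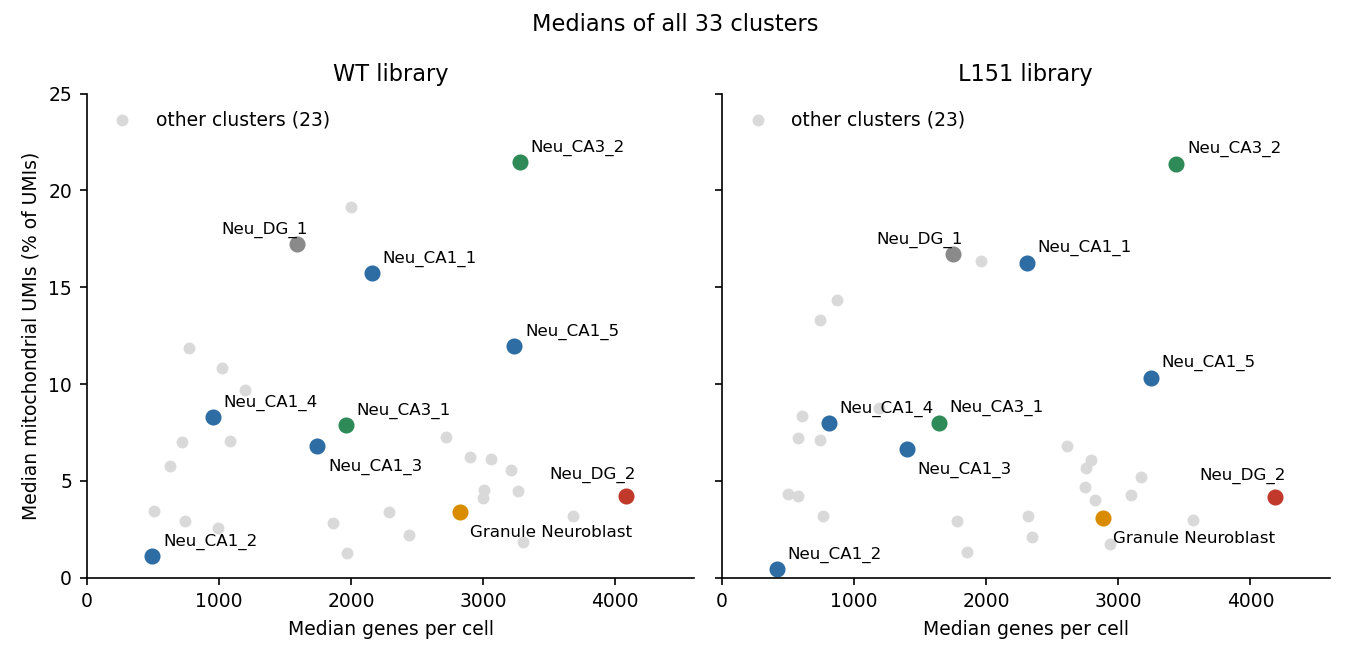
Median mitochondrial UMIs in percent (y axis) against median genes per cell (x axis) of all 33 clusters in the WT (left) and L151 (right) libraries, with each point 1 cluster. Neu_DG_2 stands farthest right, at 4080.5 and 4186 genes, and low at 4.23% and 4.18%, as do many other clusters, while Neu_DG_1 stands high at 17.2% and 16.7% and the CA1 clusters (blue) are spread over most of the height.

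Among cells of 10000 UMIs or more, Neu_DG_2 had more genes than the pyramidal clusters, at a greater median depth. The median of Neu_DG_2 was 4349 genes in WT (56 cells) and 4486 in L151 (69 cells), the highest of the 11 and 12 clusters with at least 10 such cells, at median depths of 12746.5 and 12868 UMIs. Neu_CA1_5 followed with 3972 genes (13 cells, 12187 UMIs) and 3977 genes (18 cells, 11911 UMIs), and Neu_CA3_2 had 3831 genes (14 cells, 12495.5 UMIs) and 3871 genes (42 cells, 12210 UMIs). The Neu_DG_2 cells were somewhat deeper in this range too. Per 100 UMIs they had 34.8 genes in WT and 34.5 in L151, against 32.5 and 33.2 in Neu_CA1_5 and 31.1 in Neu_CA3_2 of either library. These UMIs include mitochondrial ones, with medians of 3.53% in Neu_DG_2 of either library. The medians were 12.0 and 10.55% in Neu_CA1_5 and 21.4 and 21.3% in Neu_CA3_2. Median other UMIs were 12150 and 12440 in Neu_DG_2, 10700 and 10640.5 in Neu_CA1_5, and 10645 and 9786 in Neu_CA3_2. Both pyramidal clusters thus held fewer other UMIs than Neu_DG_2. Genes per 100 other UMIs were not computed in this range, so the order per 100 UMIs is shown with mitochondrial UMIs only. Whether Neu_DG_2 would lead without them was not tested. Its higher gene number cannot be told apart from its larger number of other UMIs. The 10 granule neuroblasts of this range in L151 had 34.7 genes per 100 UMIs, no fewer than Neu_DG_2, at a lower median depth of 10978.5 UMIs. Neu_DG_2 did not lead at lower depth. From 6000 to 10000 UMIs its median genes ranked the 3rd of 18 clusters in WT and the 4th of 19 in L151, with OPC_COP at the top with 3759 and 3579.5 genes.

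Granule neuroblasts, the immature stage of the granule lineage, were nearer to Neu_DG_2 than to Neu_DG_1 in mitochondrial percent. Their 40 WT and 39 L151 cells had medians of 3.40% and 3.11%, against 4.23% and 4.18% in Neu_DG_2. This was not particular to them, since 25 of the 31 other clusters in WT and 26 in L151 were nearer to Neu_DG_2 in this median, and 5 and 8 clusters were nearer to Neu_DG_2 than the neuroblasts were. They were shallower than Neu_DG_2, with 6539 UMIs and 2824.5 genes in WT and 6858 UMIs and 2882 genes in L151. Their mitochondrial UMIs, with medians of 201 and 240, were below those of both granule clusters. In cells from 6000 to 10000 UMIs, granule neuroblasts had 2974.5 genes in WT (22 cells) and 2968.5 in L151 (16 cells), and Neu_DG_2 cells 3357 (38 cells) and 3060 (21 cells), with median depths of 6983 and 7240.5 UMIs against 8094.5 and 7330 UMIs.

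The study compared WT with L151 mice. In the granule clusters, the medians of UMIs, genes and mitochondrial percent over all cells differed little between the libraries. Median UMIs were higher in L151 by a factor of 1.07 in Neu_DG_1 and 1.06 in Neu_DG_2, and median genes by 1.09 and 1.03. The mitochondrial medians differed by -0.51 points in Neu_DG_1 and -0.051 in Neu_DG_2 (L151 minus WT). Each of these shifts was smaller than the quartile range of the cells in either library. They were also small beside the difference between the clusters, which had the same direction in WT and L151 for each of the 5 measures. The doublet score of Neu_DG_1 shifted more, with a median 1.26 times as high in L151 (0.847) as in WT (0.673).

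At like depth, Neu_DG_1 cells of the L151 library had slightly more genes than those of the WT library. The median was higher in L151 in 5 of 6 bins of 1000 UMIs, for example 1721.5 genes in 134 L151 cells against 1634 in 168 WT cells from 3000 to 4000 UMIs. The average over bins was 68.3 genes, the highest value among the 19 clusters with at least 3 bins, which ranged from -135 to 68.3 with a median of -10.9. Some clusters with fewer bins were higher, up to 140 genes in Vascular, with 80.5 in Neu_CA1_5, each over 1 bin. With bins of 500 UMIs, in which depths are matched more closely, the average of Neu_DG_1 fell to 43.7 genes, and its rank was not computed for these bins. In Neu_DG_2 the average was 27.7 genes, with 6 of 8 bins higher in L151, and it was -22.8 with bins of 2000 UMIs. The doublet score of Neu_DG_1 was also higher in L151, by 0.167 at like depth, the 2nd highest of the 19 clusters, while the difference in Neu_DG_2 was -0.047. The mitochondrial percent at like depth was lower in L151 by the average over bins, at -0.65 points in Neu_DG_1 and -0.33 in Neu_DG_2 (L151 minus WT), the 2 lowest values of the 19 clusters, which reached up to 4.71 points with a median of 0.0034. It was not lower in every bin, with L151 higher in 2 of 6 bins of Neu_DG_1 and 3 of 8 of Neu_DG_2. By the average over bins, some clusters with fewer than 3 bins were lower than both, down to -2.00 points in Meningeal (2 bins). In the deeper cells of Neu_DG_1 the difference was -1.33 points from 4000 to 5000 UMIs, -2.11 points from 5000 to 6000 and -3.27 from 6000 to 7000, the last with 8 WT and 7 L151 cells. Whether these values vary as much between mice of 1 genotype was not tested.

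The high end of the mitochondrial range held fewer L151 than WT cells of Neu_DG_1. At 20% mitochondrial UMIs or more there were 26.7% of WT (22.9 to 30.9%) and 17.1% of L151 Neu_DG_1 cells (13.5 to 21.1%), intervals that do not overlap but cover counting error only. With cells above 15% left out of all clusters, granule cells made up 7.66% of the WT and 6.37% of the L151 library, and Neu_DG_2 36.6% and 44.4% of the granule cells. The order of the libraries was thus the same in both shares as without this limit, while the levels were not.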

How the data were processed

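Single cells of the vHPC were captured in 1 WT and 1 L151 library, after the authors had excluded a sample of each genotype. Per the labels and the submitters' processing notes, UMIs were counted by Cell Ranger 3.0.2 against mm10, and cells were clustered in Seurat 3.1.3. The deposited UMI counts and gene counts per cell are whole numbers and were not normalized. The deposited mitochondrial percent is relative to all UMIs of the cell. The deposited doublet score is of unstated scale. The authors had removed doublets with scran, blood cells, and droplets with too few or too many genes or a high mitochondrial content. Rows were assigned to libraries by the condition column, and 0 columns were left without a sample. All 8477 cells were used.

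Mitochondrial UMIs were recovered as percent times UMIs, which gave whole numbers in 100% of cells within 1e-06. Medians, quartiles and shares were computed per cluster and library in Python 3.11.15 (numpy 2.4.6, pandas 2.3.3, scipy 1.17.1), and plotted in matplotlib 3.10.9. Thinning to equal depth needs counts per gene, so cells were compared in bins of 1000 UMIs with at least 5 cells of each group, weighted by the smaller cell number. The calculation was tested on simulated clusters of unlike depth. Differences between libraries within 1 cluster were not simulated, so the test does not bear on their size. The clusters, measures and alternatives were chosen with earlier results of these data known. The clusters named for comparison are the CA1, CA3 and granule neuroblast clusters, and other clusters are named only as the ends of a range. The depth was 22049587 UMIs in WT and 22276085 in L151, and the precision is limited by 1 library per genotype. Counts per gene and the granule cell markers were not analysed here.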

Additional observations from a re-analysis of the deposited data

Results flagged for a closer look

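In 2 of the 5 measures the L151 library differed from the WT library in opposite directions in the granule clusters. Genes per 100 UMIs had a median higher by 0.99 in L151 in Neu_DG_1 and lower in Neu_DG_2, at -0.95 (L151 minus WT). The doublet score had a median higher by 0.17 in L151 in Neu_DG_1 and lower in Neu_DG_2, at -0.060. With 1 library per genotype these differences between the clusters were not tested. Median UMIs were higher in L151 in both clusters, by 231.5 in Neu_DG_1 and 665.5 in Neu_DG_2.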

How the results depend on the processing

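No paired analysis was possible because each genotype has 1 library, and no replicate was left out for the same reason. The preset alternatives were chosen with earlier results of these data known. Of 102 values under them 72 stayed within an interval of the value reported, and 30 moved. The interval was the counting interval for shares and the range over bins for matched values. For medians it combined the ends of the 95% intervals of both cluster medians. Values on another scale were judged by their direction alone. Of 38 values under alternatives added after the data were seen 31 stayed and 7 moved. None of these preset or added values reversed direction, and of 32 values for L151 minus WT at matched UMIs 1 did. Alternatives that left too few cells are not counted. In WT, at most 15% mitochondrial UMIs, a doublet score below 2 and bins of 500 UMIs gave no matched values between the clusters.
With at most 15% mitochondrial UMIs, Neu_DG_2 made up 36.6% (WT) and 44.4% (L151) of granule cells, and granule cells 7.66% and 6.37% of the libraries. The ratio of median UMIs was then 3.66 and that of genes 2.74 in WT, genes per 100 UMIs differed by -12.02 in WT, and the mitochondrial medians by -8.65 (WT) and -8.77 (L151) points, or -1.23 points in L151 at matched UMIs. Granule cells made up 17.1% (WT) and 15.1% (L151) of cells with at least 1000 genes, 15.8% and 13.3% of those with at least 1000 UMIs, 12.7% of L151 cells with at least 500 genes, 42.8% and 29.9% of neuronal cells, and 47.4% and 32.4% of CA1, CA3 and DG neurons. Without mitochondrial UMIs, the ratio of UMIs was 3.64 in L151, genes per 100 UMIs differed by -16.6 (WT) and -19.3 (L151), and matched genes by 218 and 186. With means in place of medians, the ratio of genes was 2.18 in L151 and the mitochondrial difference -10.0 (WT) and -9.53 (L151) points. Matched genes differed by 398 with bins of 2000 UMIs in WT and by 189 with bins of 500 UMIs in L151, where the mitochondrial difference was -3.93 points.

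Of the added alternatives, a doublet score below 2 gave a Neu_DG_2 share of 11.9% (WT) and 17.6% (L151) and, in L151, matched differences of 173 genes and -2.20 points. The nearest cells in UMIs gave 121 (WT) and 161 (L151) genes and -3.62 points in WT. The L151 minus WT difference in genes of Neu_DG_2 at matched UMIs reversed with bins of 2000 UMIs, at -22.8. The causes were not tested. Few Neu_DG_2 cells share the depth of Neu_DG_1, which limits the matched values.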
